A study of Mus musculus with 12 samples.

Results

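The genes described here encode the proteasome, the protease that degrades proteins tagged with ubiquitin, with its constitutive subunits, its assembly chaperones, its activators and its inhibitor. They were found by symbol, as the genes whose platform symbol begins with Psma, Psmb, Psmc, Psmd, Psme, Psmf or Psmg and a number, without the interferon-inducible catalytic subunits Psmb8, Psmb9 and Psmb10. Of 18193 genes with a probe set of their own, 46 met this rule. They were measured by 99 probe sets, and each gene was followed by the one with the highest mean. Expression values did not enter the rule except in this choice among probe sets.

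The arrays held RNA of whole liver from male Balb/c mice aged 8 to 10 weeks. Concanavalin A (ConA), a plant lectin that activates T cells and causes an acute immune-mediated hepatitis in mice, was injected into the tail vein at 20 mg/kg, and livers were taken at 1, 3 and 6 h. The control group at 0 h is labelled untreated, whereas the methods of the study describe an injection of PBS. There were 3 arrays in each of the 4 groups, without a statement that each came from a separate mouse, so that p-values measure the spread between these arrays, and no control at 1, 3 or 6 h, so that ConA and time of day cannot be told apart.

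The proteasome is built from a barrel-shaped core particle and a regulatory particle that caps it. The core has outer rings of alpha subunits, which form the gate, and inner rings of beta subunits, some of which are the catalytic ones. The regulatory particle has a ring of ATPases that unfolds the substrate, scaffold proteins and ubiquitin receptors at its base, and a lid that removes the ubiquitin chain. In interferon-treated cells the constitutive catalytic subunits are replaced by inducible ones in newly made particles, and the alternative activator PA28 is made in larger amounts.

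At 6 h after ConA all calls among the ubiquitous core subunits fell in the alpha ring. Psma1, Psma5 and Psma7 of the alpha ring rose 1.72- to 2.14-fold, and none of the 7 beta genes passed the test, nor did any at an unadjusted p under 0.05 in limma. Of all genes 15.4% were called higher at 6 h, and of genes brighter than the median 28.8%, so that counts among 7 genes are a description only. In the regulatory particle Psmc2, Psmc5, Psmd3 and Psmd7 rose. Psmd10 (gankyrin), a chaperone of the ATPase ring, was 3.05-fold higher, and Psme1, which encodes a PA28 subunit, was 1.85-fold higher, whereas Psmd9, another chaperone of the ATPase ring, fell.

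The values are linear signals as deposited. The medians of the arrays lay between 13.7 and 20.4, and 17.5 to 23.2% of the probe sets of an array were at or below a floor of 3.04, to which lower values were set. The 3 arrays at 3 h were the dimmest, with medians of 13.7 to 14.8, and the median log2 change of all genes was 0.08 at 1 h, -0.21 at 3 h and 0.02 at 6 h against control. Since that shift exceeded 0.1 at 3 h, changes there are read against it. Hepatocyte markers summed to 54103 to 59082 at 6 h and 51131 to 55313 in control livers over the 6 of 7 genes measured (Alb, Apoa1, Ttr, Cps1, Tat and Fgb), so that the labelled tissue had its defining markers. The 8 of 10 neutrophil markers measured summed to 1627 to 2529 at 6 h and to 83.9 to 139 in control livers, and the 6 of 7 natural killer cell markers to 342 to 473 at 6 h and to 59.4 to 70.1 in control livers. The 7 of 8 T cell markers measured summed to 129 to 165 at 6 h and to 56.1 to 68.1 in control livers. No marker of these lists was at the floor in all arrays of both groups. At 6 h 7 of the 8 neutrophil markers and 3 of the 7 T cell markers (Cd28, Cd2 and Cd3g) were called higher. Of the 6 natural killer cell markers only Gzmb and Gzma were, with a median log2 change of 1.17 and a highest of 5.70 in that list. Of other lists, 4 of 5 stellate cell markers were lower at 6 h (sums of 1147 to 1291 at 6 h and 1740 to 2183 in control livers). So were 3 of 6 of sinusoidal endothelial cells (with Lyve1 higher) and 2 of 5 of Kupffer cells (Vsig4 and Clec4f, with Marco higher). The sinusoidal endothelial sums overlapped, at 1419 to 1556 at 6 h and 1025 to 2312 in control livers. Of monocyte markers Chil3 and Ccr2 were higher and Cx3cr1 lower, and of cholangiocyte markers Sox9 was higher. No B cell or erythroid marker was called. Of all genes 15.4% were called higher and 12.7% lower at 6 h. The part of these cells in the results was not tested, and in RNA of whole tissue fewer cells of a type and less RNA per cell cannot be told apart.

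**Figure D1:**
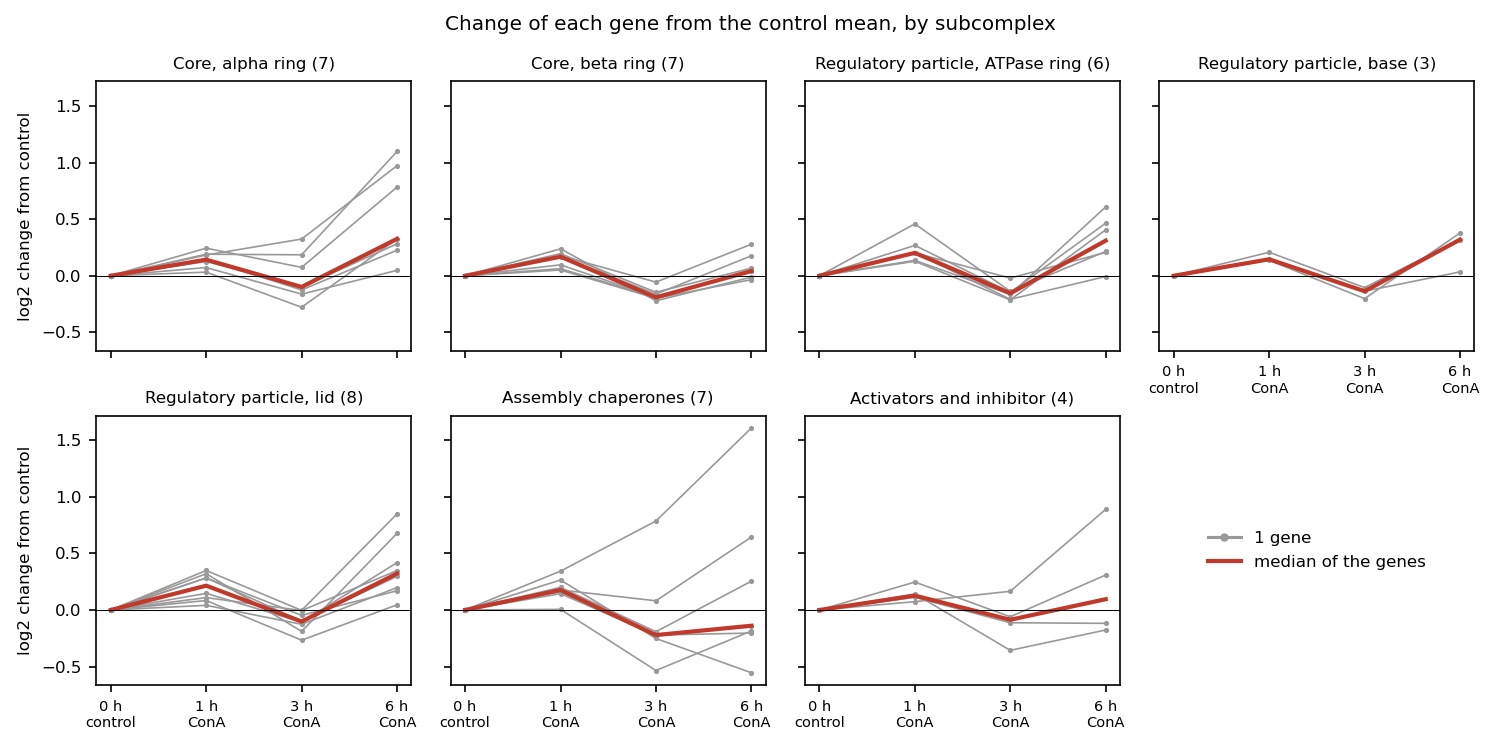
Log2 change from the control mean (y axis) at 0, 1, 3 and 6 h (x axis) for each gene (grey lines) of 7 subcomplexes, with the median of the genes in red and their number in the panel titles. The alpha ring ends at a median of 0.33 at 6 h and the beta ring at 0.04.

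A gene passed the test where limma gave it a Benjamini-Hochberg adjusted p under 0.05 over all genes. At 1 h no gene of the 46 passed in either direction, with 1.5% of all genes called higher and 0.148% called lower. At an unadjusted p under 0.05 limma had 3 higher (Psmc4, Psmd13 and Psme3) and none lower. The share of all genes at an unadjusted p was not counted for any comparison, so that such counts are a description only. The median log2 change of the 46 genes was 0.16, with 45 above 0 and 1 below. The median moved with 1 array. The median log2 signal of the 46 genes was 10.1 on ConA 1 h replicate 1 and 9.71 and 9.59 on the other 1 h arrays, against 9.61 to 9.69 in control livers, and without that array the median change was 0.04.

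At 3 h 1 gene was called higher (Psmd10) and 3 lower (Psma8, Psmd5 and Psme3ip1), against 5.15% of all genes higher and 14.7% lower. The median of the 46 genes was -0.14, closer to 0 than the -0.21 of all genes. Among the 43 bright members 1 was higher and 2 were lower, against 9.77% and 31.8% of bright genes. After quantile normalization 3 were higher and 1 was lower, with all genes at 7.96% and 9.06%. After scaling each array to a common median 3 were higher and none was lower, with all genes at 7.9% and 6.33%. Without ConA 3 h replicate 1, ConA 3 h replicate 3 or control replicate 3 only 1 was lower, and without ConA 1 h replicate 1 there were 2 higher.

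At 6 h 12 of the 46 genes (26.1%) were called higher and 1 (2.17%) lower, against 15.4% and 12.7% of all genes. The median log2 change was 0.25. Quantile normalization gave 18 higher and 3 lower, with all genes at 14.2% and 17.7%, and median scaling 10 and 1, with all genes at 12.4% and 17.3%. Most of the 46 genes were bright, and a larger share of bright genes passed the test. In a fit of the 9096 genes brighter than the median, which holds 43 of the 46, 14 were higher and 1 was lower, against 28.8% and 24.6% of those genes. The share of rises was thus near that of bright genes, and the falls were fewer. Over the 3 time points together, 19 of the 46 passed limma's F test, against 38.0% of all genes.

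Psma8 (testis) and Psmb11 (thymus) are subunits of tissue-restricted proteasomes with signals near the floor, and Psmc3ip, a meiotic recombination factor, and Psme3ip1, which binds a proteasome activator, share only the name. Without these 4 genes, 11 of 42 were higher and 1 lower at 6 h, and 1 was higher and 1 lower at 3 h.

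**Figure D2:**
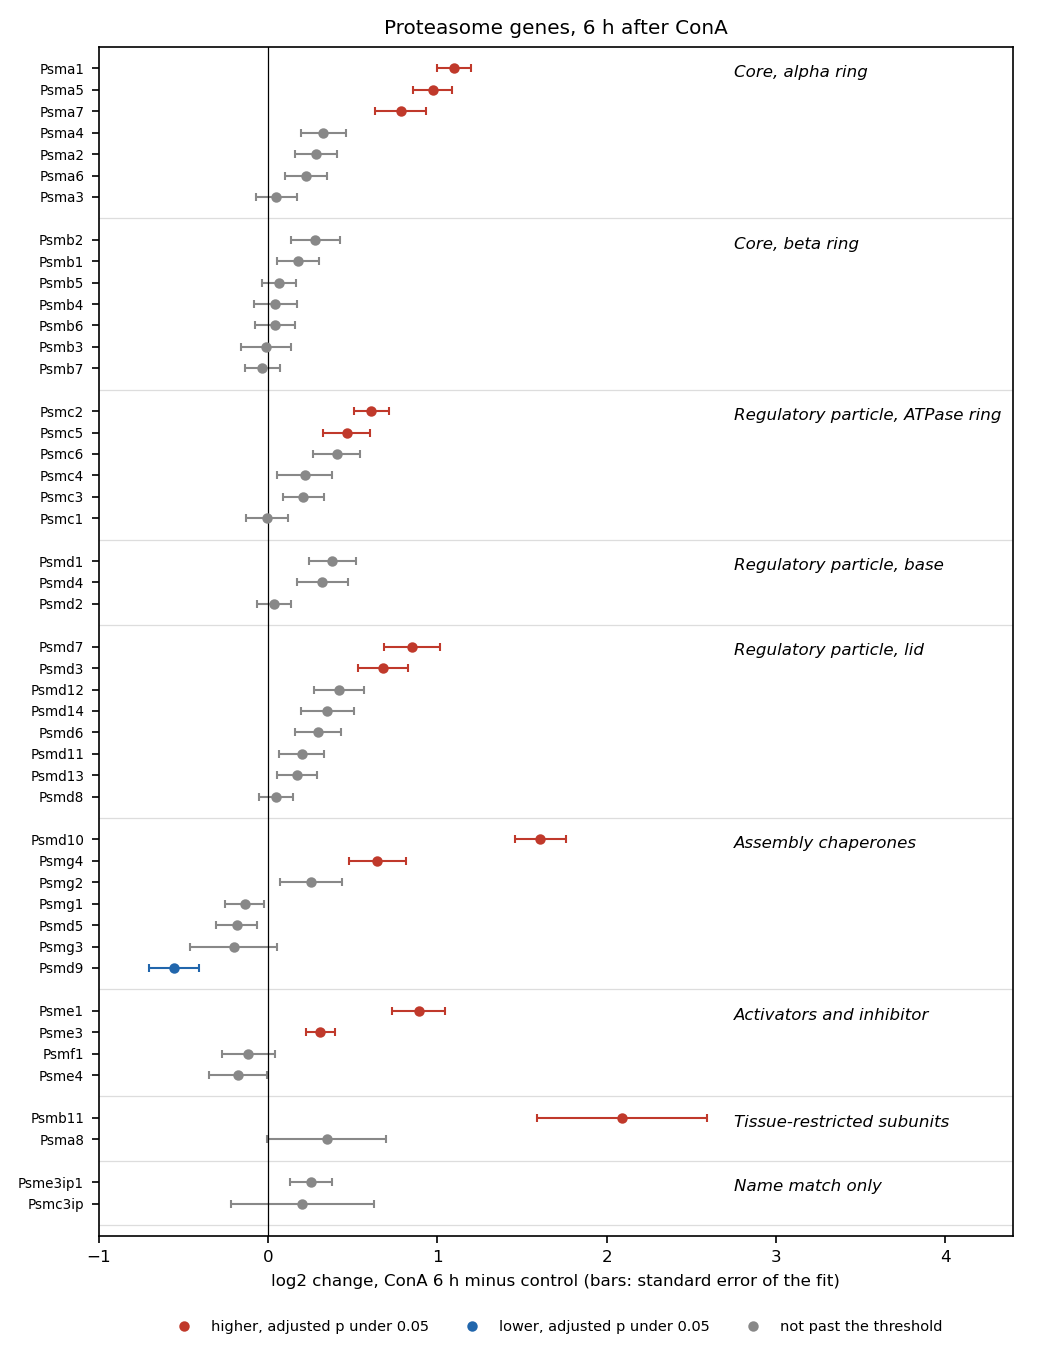
Log2 change at 6 h after ConA against control (x axis) of the 46 genes (y axis), sorted within subcomplexes, with bars for the standard error of the fit. Red points passed the test as higher (12), the blue point, Psmd9, as lower, and grey points did not pass.

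Promoter windows from RefSeq (GRCm38.p6) were matched to 38 of the 46 genes by symbol. In the 250 bases before the start, the CCAAT box (CCAAT, either strand) was found in 15 of the 38 genes and in 33.9% of all 32851 windows. It was found in 6 of the 10 genes with a window that rose at 6 h, the dim Psmb11 among them. The core of the antioxidant response element (TGACNNNGC, either strand), the element through which Nfe2l1 and Nfe2l2 act, was found in 5 genes (Psmb5, Psmb6, Psmc6, Psmd9 and Psmd12) and in 10.2% of all windows. None of these 5 was called higher at 6 h against control, though Psmc6 and Psmd12 were called higher from 3 h to 6 h.

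The interferon response element (GAAA, then 2 bases of any kind and GAAA again, either strand) was found in 3 genes, Psmb3, Psmd4 and Psmd9, against 2.98% of all windows. None of these 3 was called higher at 6 h against control. GGG followed after 5 bases of any kind by CC (either strand), as in sites of NF-kB, was found in 21 genes, against 45.8% of all windows. Like the CCAAT box, it was found in 6 of the 10 genes with a window that rose at 6 h. The motifs may overlap one another, and a match is a description of the letters only.

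The 150 bases before the start are shown for the genes with a CCAAT box that rose most at 6 h apart from the dim Psmb11 (Psmd10 and Psma1), for the one that fell at 6 h (Psmd9) and for the catalytic genes with the antioxidant element (Psmb5 and Psmb6). They are written from 5′ to 3′ on the strand of the gene, with both motifs in capitals, and ATTGG is the CCAAT box read on the other strand. Psmd10 lies at chrX:140956712-140956861 (minus strand), Psma1 at chr7:114276117-114276266 (minus), Psmd9 at chr5:123228040-123228189 (plus), Psmb5 at chr14:54617996-54618145 (minus) and Psmb6 at chr11:70525207-70525356 (plus).
Psmd10: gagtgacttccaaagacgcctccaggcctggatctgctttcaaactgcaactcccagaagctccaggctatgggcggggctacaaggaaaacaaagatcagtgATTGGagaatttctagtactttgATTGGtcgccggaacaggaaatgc
Psma1: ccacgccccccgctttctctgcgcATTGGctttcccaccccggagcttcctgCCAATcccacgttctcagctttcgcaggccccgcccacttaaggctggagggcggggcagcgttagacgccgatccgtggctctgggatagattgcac
Psmd9: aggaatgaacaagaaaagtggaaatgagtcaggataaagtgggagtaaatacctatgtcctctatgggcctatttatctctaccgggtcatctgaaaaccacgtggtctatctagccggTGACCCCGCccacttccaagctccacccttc
Psmb5: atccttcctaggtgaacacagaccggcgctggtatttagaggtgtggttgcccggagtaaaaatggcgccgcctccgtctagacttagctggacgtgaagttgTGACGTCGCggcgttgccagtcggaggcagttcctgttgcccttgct
Psmb6: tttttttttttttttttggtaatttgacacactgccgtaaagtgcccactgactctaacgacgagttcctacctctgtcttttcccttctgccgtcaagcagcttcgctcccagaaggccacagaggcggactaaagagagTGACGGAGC

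In these stretches Psma1 holds a CCAAT box on each strand, at 126 and 98 bases before the start, and Psmd10 holds 2 on the other strand, at 47 and 24 bases. The antioxidant element lies 47 bases before the start in Psmb5 and 31 in Psmd9. In Psmb6 it lies directly before the start used, at 9 bases. That start is downstream of the first base of the annotated gene, chr11:70525324, so that the element of Psmb6 lies inside the gene. None of Psmb5, Psmd9 and Psmb6 was called higher at 6 h. The table of promoters held no window for Psma8, Psmb1, Psmb2, Psmb7, Psmc3, Psmd3, Psmd7 and Psmg2.

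Apart from the dim Psmb11, the alpha ring held the steepest rises among subunits of the core. Psma1, an alpha subunit, had signals of 925, 859 and 833 in control livers, 1099, 974 and 918 after 1 h of ConA, 1096, 907 and 979 after 3 h and 1807, 1977 and 1818 after 6 h. The 6 h arrays lay apart from all others, and the other groups overlapped. The rise at 6 h was 2.14-fold (log2 change 1.10, SE 0.10, adjusted p = 7.02e-05). It was called under each of the 21 alternatives tried. At 3 h Psma1 did not pass (log2 change 0.19, SE 0.10, adjusted p = 0.248), but did after quantile normalization (log2 change 0.30, adjusted p = 0.0201) and median scaling (0.43, adjusted p = 0.0271).

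Psma5 had 1743, 1652 and 1596 in control livers, 2197, 1803 and 1698 after 1 h of ConA, 2212, 1858 and 2194 after 3 h and 3186, 3453 and 3156 after 6 h. All 3 h arrays lay above the control arrays already, and the 6 h arrays above both. At 3 h its change did not pass (log2 change 0.32, SE 0.11, adjusted p = 0.0792), though it did after quantile normalization (log2 change 0.42, adjusted p = 0.00485) and median scaling (0.57, adjusted p = 0.0117). At 6 h it was 1.96-fold higher (log2 change 0.97, SE 0.11, adjusted p = 0.000256). With probe sets named _x_at, _s_at or _a_at left out, only a dim probe set stood for it, and the call was lost (log2 change 0.57, adjusted p = 0.151).

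Psma7 had 1504, 1733 and 1299.7 at 6 h against 883, 878 and 856 in control livers, with no overlap (1.72-fold, log2 change 0.78, SE 0.15, adjusted p = 0.00375). Its second bright probe set, at a mean of 941 at 6 h and 679 in control livers, had a smaller change that did not pass (log2 change 0.49, adjusted p = 0.097 over all probe sets, and 0.0807 over genes when it stood for Psma7). For Psma5 the second bright probe set rose as well, to 1326 ± 67.2 at 6 h against 624 ± 33.1 in control livers (SD, n = 3 each, log2 change 1.09).

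The other alpha genes had log2 changes of 0.33 (Psma4), 0.28 (Psma2), 0.23 (Psma6) and 0.05 (Psma3) at 6 h, and none passed. Psma4 (adjusted p = 0.0136), Psma6 (0.0395) and Psma2 (0.0496) did pass in limma after quantile normalization. Psma4, Psma2 and Psma6 lay above control on every 6 h array, at 1793, 1903 and 1710.3 against 1403, 1509 and 1398 for Psma4. So did Psmb5 of the beta ring, at a log2 change of 0.07. How many of all genes had groups apart was not counted, so that such statements, here and below, are a description only. Psma3 was measured by a second, dim probe set that moved otherwise, with 87.5 at 6 h and 51.5 in control livers (log2 change 0.77). Its value is therefore uncertain. At 3 h the 7 alpha genes had a median log2 change of -0.10, and none passed, with 1 (Psma5) higher in limma at an unadjusted p under 0.05.

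None of the beta genes was called at 6 h. Psmb5, the subunit with chymotrypsin-like activity, had 879, 904 and 870.4 at 6 h and 844, 838 and 849.9 in control livers. The 6 h arrays were all above the control arrays, by a log2 change of only 0.07 that did not pass (SE 0.10, adjusted p = 0.699). Psmb6, which cuts after acidic residues, averaged 1169 ± 78.0 at 6 h and 1136 ± 25.5 in control livers (SD, n = 3 each). Psmb7, which cuts after basic residues, averaged 2726 ± 35.1 at 6 h and 2792 ± 121 in control livers (SD, n = 3 each). In both genes the groups overlapped.

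The noncatalytic beta genes had log2 changes of 0.28 (Psmb2), 0.18 (Psmb1), 0.04 (Psmb4) and -0.01 (Psmb3) at 6 h, also with overlapping groups. A second probe set of Psmb4 had all 6 h arrays above the control arrays, with 2172 ± 338 at 6 h and 1626 ± 219.7 in control livers (SD, n = 3 each), by a change that did not pass (log2 change 0.41, adjusted p = 0.179 over all probe sets). The median of the 7 beta genes was 0.17 at 1 h, -0.19 at 3 h and 0.04 at 6 h, against 0.14, -0.10 and 0.33 for the 7 alpha genes. A p that misses the threshold does not show that the beta genes stayed level, but the standard errors of their 6 h changes were 0.10 to 0.15, and those of the alpha genes 0.10 to 0.15.

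The alpha and beta rings were set against each other within each array, which removes a factor common to all probe sets of an array. The median log2 signal of the alpha genes minus that of the beta genes was 0.65, 0.66 and 0.73 at 6 h, and 0.28, 0.39 and 0.49 in control livers. At 3 h it was 0.31, 0.17 and 0.33, and at 1 h 0.30, 0.31 and 0.21. The 6 h arrays thus stood above all the others, by 0.29 on the log2 scale over control. The difference was chosen with results known and was not tested. These are differences between probe sets, and only their change over time is read, not the level of one ring against the other.

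The lid minus the beta ring changed by 0.25 between control and 6 h, with -0.19, -0.17 and -0.13 at 6 h and -0.57, -0.41 and -0.25 in control livers. The ATPase ring minus the beta ring changed by 0.19, with -0.31, -0.23 and -0.28 at 6 h and -0.53, -0.49 and -0.36 in control livers. In both the 6 h arrays lay above the control arrays.

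**Figure D3:**
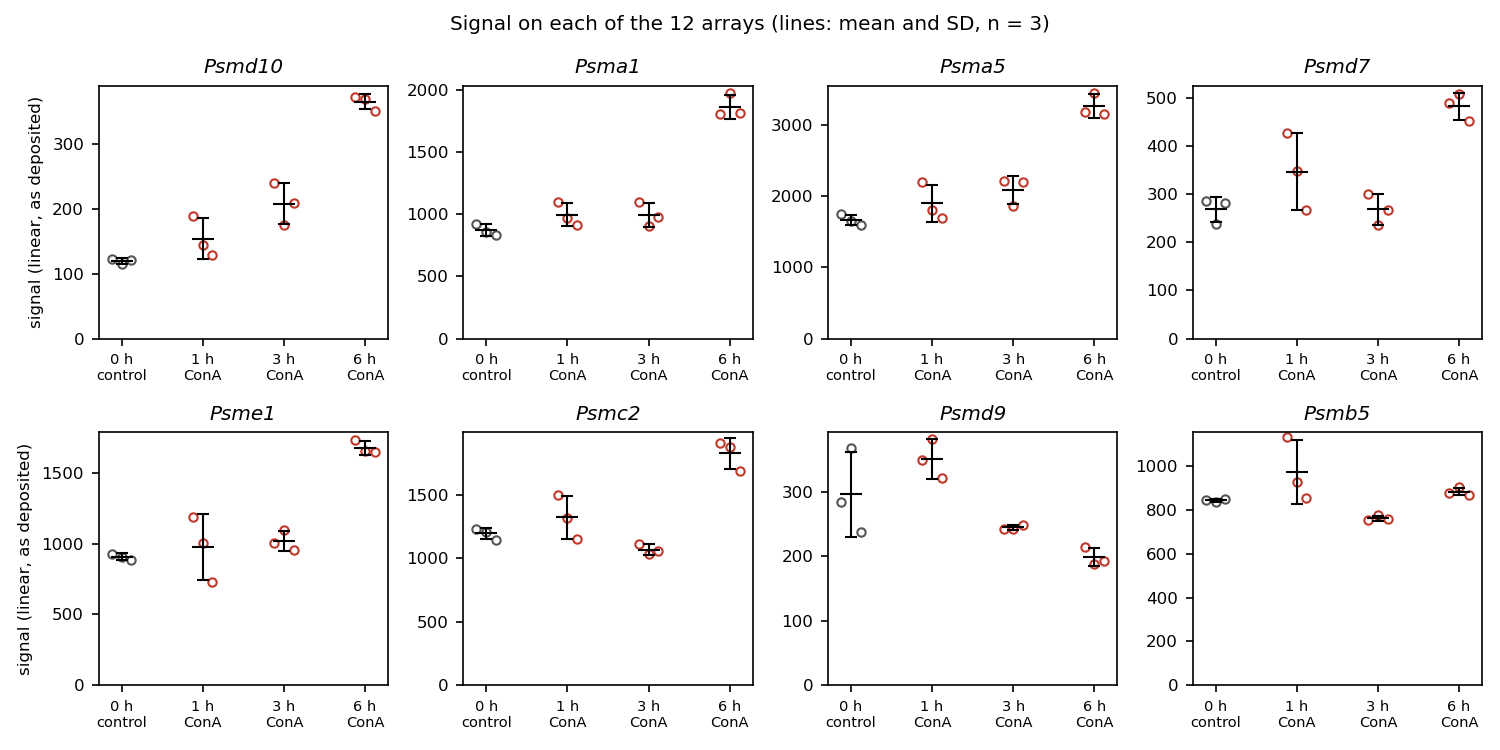
Linear signal (y axes, from 0) of 8 genes on each array of the control, 1 h, 3 h and 6 h groups (x axis), with lines for the mean and SD of 3 arrays. Psmd10, Psma1, Psma5, Psmd7, Psme1 and Psmc2 are highest at 6 h, Psmd9 is lowest there, and Psmb5 stays between 756 and 1136 throughout.

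The ATPase ring unfolds substrates and opens the gate of the core. Psmc2 had 1234, 1213 and 1149 in control livers, 1498, 1317 and 1156 after 1 h of ConA, 1116, 1035 and 1056 after 3 h and 1914, 1880.2 and 1692 after 6 h. All 3 h arrays were below the control arrays and all 6 h arrays above them. Only the 6 h difference from control passed, at 1.52-fold (log2 change 0.61, SE 0.10, adjusted p = 0.00197). Its other bright probe set rose too, to 1501 ± 170.2 at 6 h against 1055 ± 5.29 in control livers (SD, n = 3 each, log2 change 0.50, adjusted p = 0.0208 over all probe sets).

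Psmc5 had 774, 919 and 764 at 6 h and 593, 646 and 539 in control livers, without overlap, and was 1.38-fold higher (log2 change 0.46, SE 0.14, adjusted p = 0.0319). This call was lost after median scaling (log2 change 0.33, adjusted p = 0.0661), with a pseudocount of 1 (adjusted p = 0.0527), and without ConA 6 h replicate 1 (0.0541), ConA 6 h replicate 2 (0.108), control replicate 1 (0.0753) or control replicate 3 (0.101). Psmc6, Psmc4, Psmc3 and Psmc1 had log2 changes of 0.41, 0.22, 0.21 and -0.01 at 6 h that did not pass. Psmc6 came nearest, with 1019, 1180.3 and 935 at 6 h and 790.2, 808 and 757 in control livers (adjusted p = 0.0576). It passed after quantile normalization (log2 change 0.35, adjusted p = 0.0166).

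At the base, the scaffold subunits Psmd1 and Psmd2 and the ubiquitin receptor Psmd4 had log2 changes of 0.38, 0.03 and 0.32 at 6 h. None passed, and at an unadjusted p under 0.05 limma had only Psmd1, as higher. Psmd1 passed after quantile normalization (log2 change 0.33, adjusted p = 0.0114). Psmd1 had 769, 857 and 739 at 6 h and 616, 613 and 587 in control livers, and Psmd4 had 851, 1045 and 951 at 6 h and 706, 809 and 761 in control livers. For both the groups did not overlap, whereas Psmd2 overlapped.

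In the lid, Psmd7, the partner of the deubiquitinase subunit, had 284, 239 and 281 in control livers, 426, 347 and 267 after 1 h of ConA, 299.8, 237 and 267 after 3 h and 488, 507 and 451 after 6 h. The 6 h arrays were above all others, and the 1 h arrays were widely spread. At 6 h it was 1.8-fold higher (log2 change 0.85, SE 0.17, adjusted p = 0.0043). Psmd3, a structural subunit of the lid, had 245, 263 and 283 in control livers, 397, 282 and 316 after 1 h of ConA, 273, 202 and 222 after 3 h and 440.0, 405 and 418 after 6 h. It was 1.6-fold higher at 6 h (log2 change 0.68, SE 0.15, adjusted p = 0.00729), with every 6 h array above every other array.

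Psmd14, the deubiquitinase itself, did not pass at 6 h (log2 change 0.35, SE 0.16, adjusted p = 0.137), with 1009.7, 1119 and 1003 against 732, 887 and 846 in control livers and no overlap. The remaining lid genes were Psmd12 (log2 change 0.42), Psmd6 (0.30), Psmd11 (0.20), Psmd13 (0.17) and Psmd8 (0.05). None of the 5 passed, though Psmd12 (adjusted p = 0.0124) and Psmd6 (0.0387) did after quantile normalization. Psmd11 is uncertain, since another of its probe sets rose, with 546 ± 17.8 at 6 h and 287 ± 27.0 in control livers (SD, n = 3 each, log2 change 0.93, adjusted p = 0.000764 over all probe sets), and a further one gave a log2 change of -0.04. Psmd13 is uncertain too, since one of its dimmer probe sets fell, with 59.8 ± 15.1 at 6 h and 128 ± 19.3 in control livers (SD, n = 3 each, log2 change -1.12, adjusted p = 0.00596 over all probe sets).

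The assembly chaperones, which leave the particle once it is built, went in different directions. Psmd10 had 123, 115 and 121 in control livers, 189, 144 and 128 after 1 h of ConA, 239, 175 and 209 after 3 h and 373, 369 and 351 after 6 h. Each ConA group lay wholly above the control arrays, and the 6 h arrays lay above all others. It was 1.72-fold higher at 3 h (log2 change 0.79, SE 0.15, adjusted p = 0.00703) and 3.05-fold higher at 6 h (log2 change 1.61, SE 0.15, adjusted p = 7.96e-05), and both calls stood under each of the 21 alternatives. In the values as deposited it was the only one of the 46 genes higher at both times, whereas Psma1 and Psma5 also were after quantile normalization and after median scaling. It has a single probe set.

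Psmd9 had 283, 367 and 237 in control livers, 349, 382 and 321 after 1 h of ConA, 243, 242 and 248 after 3 h and 214, 188 and 192 after 6 h. The 6 h arrays were below all others, although control replicate 2 stood well above the other control arrays. Its signal at 6 h was 0.681 of that in control livers (log2 change -0.55, SE 0.15, adjusted p = 0.0197). The call was lost when the fit held only the 2 groups (adjusted p = 0.0892) and without ConA 6 h replicate 2 (0.0626) or replicate 3 (0.0595).

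Psmd5, also a chaperone of the ATPase ring, had 361, 368 and 341 in control livers, 432, 350.4 and 303 after 1 h of ConA, 249.9, 255 and 234 after 3 h and 335, 303 and 304 after 6 h. The 3 h arrays were below all others, and the fall at 3 h passed (log2 change -0.53, SE 0.12, adjusted p = 0.0148). It was lost after median scaling (log2 change -0.29, adjusted p = 0.181) and without ConA 3 h replicate 3 (adjusted p = 0.0522). At 6 h all arrays were still below the control arrays, by a change that did not pass (log2 change -0.18, SE 0.12, adjusted p = 0.327). That change did pass after quantile normalization (log2 change -0.28, adjusted p = 0.0309).

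Psmg1 to Psmg4 encode the chaperones that assemble the alpha ring. Psmg4 had 231, 226 and 237 at 6 h and 143, 154 and 147 in control livers, with no overlap, and was 1.56-fold higher (log2 change 0.65, SE 0.17, adjusted p = 0.0185). Without ConA 6 h replicate 3 its adjusted p was 0.055 and without control replicate 1 it was 0.057. Its partner Psmg3 had 179.8, 210.5 and 153 at 6 h and 183, 224 and 215 in control livers. Psmg3 did not pass (log2 change -0.20, SE 0.26, adjusted p = 0.639), nor did the other pair, Psmg1 (log2 change -0.14) and Psmg2 (0.25). Psmg1 was called lower at 6 h after quantile normalization (log2 change -0.23, adjusted p = 0.0372).

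Among the alternative activators, Psme1 encodes the alpha subunit of PA28, which opens the core without ATP and favours peptides for antigen presentation. It had 932, 909 and 883 in control livers, 1191, 1007 and 727 after 1 h of ConA, 1004, 1099 and 956 after 3 h and 1739, 1661 and 1648 after 6 h. The 6 h arrays were above all others. At 6 h Psme1 was 1.85-fold higher (log2 change 0.89, SE 0.16, adjusted p = 0.00231), under each of the 21 alternatives. At 3 h all arrays were above the control arrays, by a log2 change of 0.17 that did not pass (adjusted p = 0.521). The partner subunit Psme2 is not given, because its probe set carries a second symbol.

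Psme3, the nuclear PA28 gamma, had 221, 221 and 222 in control livers, 284, 243 and 265 after 1 h of ConA, 195, 221 and 223 after 3 h and 283, 264 and 277 after 6 h. The 3 control arrays were within 1 unit of each other, and both the 1 h and the 6 h arrays were above them. At 6 h it was 1.24-fold higher (log2 change 0.31, SE 0.09, adjusted p = 0.0234), and a second probe set gave a log2 change of 0.37. The call was lost under 8 of the 21 alternatives, among them quantile normalization (log2 change 0.20, adjusted p = 0.189), median scaling (0.17, adjusted p = 0.374) and the fits without ConA 6 h replicate 1 (adjusted p = 0.0715), ConA 6 h replicate 3 (0.0626), control replicate 1 (0.0591), control replicate 2 (0.0556) or control replicate 3 (0.052).

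Psme4, which encodes the nuclear activator PA200, had 1276, 1525 and 1183 in control livers, 1649, 1466 and 1279.7 after 1 h of ConA, 1207, 812 and 1119 after 3 h and 1299, 1092 and 1124 after 6 h. Psmf1, which encodes PI31, an inhibitor of the core in the test tube, had 235, 259 and 218 in control livers, 292, 271 and 212 after 1 h of ConA, 213, 224 and 221 after 3 h and 240.4, 244 and 177 after 6 h. The groups of both genes overlapped at 6 h, and neither passed (log2 changes -0.18 and -0.12). Of these 4 genes, only those of PA28 passed.

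The genes near the floor need more care. Psmb11 had 18.6, 12.0 and 15.5 at 6 h and 2.34, 0.75 and 4.85 in control livers, where 2 of 3 arrays were under the floor. Its rise at 6 h passed (adjusted p = 0.0121), and since its control level is mostly the floor, the fitted fold is no measured ratio. Psma8 had 4.52, 4.17 and 0.24 at 3 h, 1 array of them under the floor, and 14.0, 6.53 and 8.60 in control livers. Its fall at 3 h (log2 change -1.26, SE 0.35, adjusted p = 0.0337) was lost under 11 of 20 alternatives, with adjusted p up to 0.112 (without ConA 3 h replicate 3). Psme3ip1 had 162, 174 and 169.9 at 3 h and 207, 263 and 260.2 in control livers and fell (log2 change -0.52, SE 0.12, adjusted p = 0.0173), but not after quantile normalization (adjusted p = 0.0694), median scaling (0.192) or without ConA 3 h replicate 1 (0.0534), control replicate 2 (0.0622) or control replicate 3 (0.0512). Psmc3ip overlapped in all groups, with 10.9, 11.5 and 4.95 at 6 h and 8.30, 10.6 and 4.66 in control livers.

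The change from one time point to the next was tested directly. Between 1 h and 3 h, 11 of the 46 genes were called lower and none higher, against 19.9% and 3.08% of all genes. At an unadjusted p under 0.05 limma had 23 lower and 1 higher, with no count over all genes at that threshold to set them against. The 11 came from the beta ring, the ATPase ring, the lid, the chaperones and the activators, with Psme3ip1 besides, and none of the 11 from the alpha ring. Among bright genes 15 of 43 were lower and 1 higher, against 44.9% and 5.87% of those genes. The largest changes among subunits and chaperones were those of Psmc4 (955, 726 and 767 at 3 h and 1502, 1007 and 1215 at 1 h, log2 change -0.60, SE 0.16, adjusted p = 0.0277) and Psmd5 (log2 change -0.54). The median log2 change of all genes in this comparison was -0.31, as was that of the 46. After quantile normalization and after median scaling none was lower and 2 were higher. All genes were then at 5.38% lower and 5.52% higher, and at 4.36% lower and 5.17% higher, in that order. The count of lower genes was 2 without ConA 1 h replicate 1, 6 without replicate 2 and 19 without replicate 3 of that group. It was 5, 2 and 1 without ConA 3 h replicates 1, 2 and 3, and 6 and 7 in the fits that lacked replicate 1 and replicate 3 of the 6 h group. With control replicate 1 left out it was 7. The 11 calls thus moved with the brightness of whole arrays and with single arrays, whose part was not tested.

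Between 3 h and 6 h, 18 of the 46 genes were called higher and none lower, against 18.8% and 3.83% of all genes. At an unadjusted p under 0.05 limma had 29 higher and none lower, again with no count over all genes at that threshold. Among bright genes 23 of 43 were higher, against 39% of those genes, and none was lower, against 9.11%. Again all genes shifted, by a median of 0.24, and the 46 by 0.35. After quantile normalization 15 were higher and 1 lower, with all genes at 9.34% and 10.3%. Median scaling gave 3 higher and 1 lower, with all genes at 6.24% and 14.2%. Without ConA 1 h replicate 1 there were 29 calls of higher. Apart from the dim Psmb11 and Psma8, Psma1 had the largest change among subunits of the particle (log2 change 0.91, SE 0.10, adjusted p = 0.000756), followed by Psmd3 (log2 change 0.87) and Psmd7 (0.85). The 7 beta genes had changes of 0.17 to 0.34, and none passed, with Psmb1 and Psmb2 higher at an unadjusted p under 0.05.

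The constitutive catalytic subunits share their place in the core with inducible ones, which lie outside the rule and are given here once for that reason. Psmb9, the inducible counterpart of Psmb6, had 1890.2, 1717 and 1624 at 6 h and 176, 199 and 209 in control livers (log2 change 3.17). Psmb8, the counterpart of Psmb5, had 1003, 943 and 894 at 6 h and 193, 186 and 164 in control livers (log2 change 2.39). Psmb10, the counterpart of Psmb7, had 1149.6, 1232 and 949 at 6 h and 339, 305 and 286 in control livers (log2 change 1.84). All 3 were also higher at 3 h.

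Relative to control and within each array, the inducible gene minus its constitutive counterpart rose at 6 h by a log2 of 3.13 for Psmb9 and Psmb6, 2.32 for Psmb8 and Psmb5 and 1.87 for Psmb10 and Psmb7. At 3 h these differences were 2.43, 1.31 and 1.37, and at 1 h they were 0.08, -0.02 and 0.12. At 3 h and at 6 h all ConA arrays were above all control arrays in each of the 3 pairs. The two-sided exact permutation p was 0.1 each time, the smallest that 3 arrays against 3 can give, and at 1 h it was 0.4 to 0.9 over the 3 pairs.

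**Figure D4:**
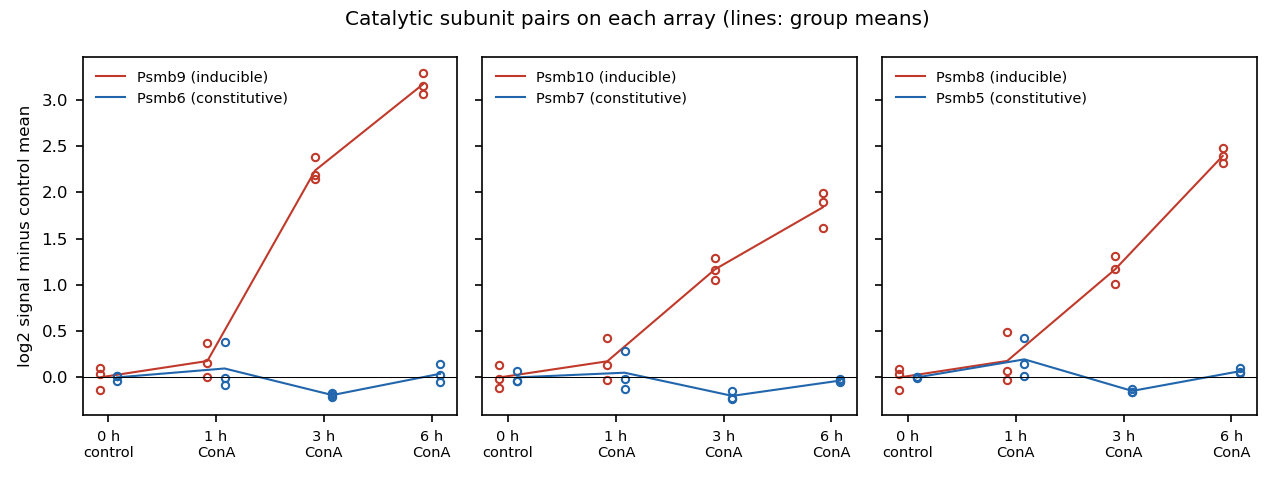
Log2 signal minus the control mean (y axis) on each array at 0, 1, 3 and 6 h (x axis) for the 3 pairs of inducible (red) and constitutive (blue) catalytic subunits, with lines through the group means. At 6 h the inducible genes are up by 1.84 to 3.17 and the constitutive genes lie between -0.03 and 0.07.

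Genes that work with the particle were followed for comparison. Of 23 listed factors that bind the proteasome or help to build it, 19 were measured, and at 6 h 2 were higher and none lower, against 15.4% and 12.7% of all genes. They were Txnl1, a thioredoxin-like protein bound to the regulatory particle (2935, 3460.1 and 3113 at 6 h and 2229, 2402 and 2497 in control livers, adjusted p = 0.0498), and Ubqln2, a shuttle for ubiquitylated proteins (521, 576 and 497 at 6 h and 412, 435 and 399.6 in control livers, adjusted p = 0.0292). Pomp, the maturation factor of the core, did not pass (log2 change 0.16, SE 0.12, adjusted p = 0.402). Nfe2l1, a transcription factor of proteasome genes, was higher at 3 h (log2 change 0.39, SE 0.12, adjusted p = 0.0429) and did not pass at 6 h (log2 change 0.22, SE 0.12, adjusted p = 0.198). At 3 h Ubqln2 and Ubqln4 were lower (log2 changes -0.40 and -0.39).

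Of 7 listed ubiquitin genes and activating enzymes only 2 were measured. Ubd, which encodes the ubiquitin-like modifier FAT10, had 1658, 1352 and 1070.5 at 6 h and 10.4, 13.8 and 6.03 in control livers (log2 change 7.14, adjusted p = 3.74e-06), and Uba6, the enzyme that activates it, had 243, 233 and 210.3 at 6 h and 160.3, 144 and 162 in control livers (log2 change 0.56, SE 0.13, adjusted p = 0.00845). Uba6 was lower at 3 h (log2 change -0.62). Of 15 genes of the segregase p97 and proteins that work with it, 6 were higher and 3 lower at 6 h, against 15.4% and 12.7% of all genes. The largest changes were those of Derl3 (log2 change 2.46), Derl1 (0.95) and Plaa (0.94), of which Derl3 and Derl1 encode derlins, which act in protein export from the endoplasmic reticulum. Derl3 did not move in 1 direction, since it was called lower from 1 h to 3 h (log2 change -1.73) and higher from 3 h to 6 h (3.93). The 3 lower genes were another derlin, Derl2 (log2 change -0.53), Faf1 (-0.42) and Ubxn6 (-0.39), and Derl2 and Faf1 were lower at 3 h too. Vcp, p97 itself, did not pass (log2 change 0.25, SE 0.10, adjusted p = 0.0858).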

How the data were processed

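Total RNA of liver was hybridised to 12 Affymetrix Mouse Genome 430 2.0 arrays. The values used here are the linear signal intensities that the authors deposited in the series matrix. The submitters' processing notes name MAS5 5.0, whereas the methods of the study name RMA. The deposited values are linear with many low values. Their array medians differ, at 13.7 to 20.4, and were thus not made equal by the quantile normalization that is part of RMA. No further normalization between arrays was applied. Intensities at or below 3.04, the 20th percentile of all values, were set to it and log2 was taken, with no filter on low values. Of 45101 probe sets, 64 controls were left out. Of the 45037 tested, 34945 carried 1 symbol, 932 several and 9160 none. 34741 symbols were updated by Entrez ID and 204 were kept, and the probe set with the highest mean was taken for each of 18193 genes. The symbol rule found 46 proteasome genes, 20 with 1 probe set and 26 with several.

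All 4 groups were fitted together in limma 3.58.1 (R 4.3.3) with empirical Bayes, and p-values were Benjamini-Hochberg adjusted over all genes, with calls at an adjusted p under 0.05. The scripts were tested on simulated data. Values on every array were given for the activators and the inhibitor and for the genes past the threshold with the largest changes at 6 h in each subcomplex, and for others where a sentence turns on them. The members and lists were chosen with earlier results of these data known. Alternatives were quantile normalization, median scaling, a pseudocount of 1, bright genes, an intensity trend, all probe sets, probe sets named _x_at, _s_at or _a_at left out, fits of 2 groups, a plain analysis of variance, the replicate number as a block and each array left out. Arrays have no counts, and their number, 3 per group, limits the precision. Precision also differed between genes, with standard errors at 6 h of 0.09 for Psme3 and 0.50 for the dim Psmb11. One promoter motif is not reported here.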

Additional observations from a re-analysis of the deposited data

Results flagged for a closer look

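The change from control differed between time points, by limma's test of the difference, in 29 cases. Between 3 h and 1 h it was lower at 3 h in 11 genes, given with the log2 difference: Psme3ip1 (-0.60), Psmc4 (-0.60), Psmd5 (-0.54), Psmd9 (-0.52), Psmd3 (-0.51), Psmb3 (-0.46), Psmc1 (-0.41), Psmg1 (-0.39), Psmd8 (-0.35), Psmb5 (-0.34) and Psme3 (-0.31). After quantile normalization and after median scaling none of the 46 genes was lower in this comparison, against 5.38% and 4.36% of all genes. All genes had a median of -0.31 here in the values as deposited.

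Between 6 h and 3 h the change from control was higher at 6 h in 18 genes: Psmb11 (1.85), Psma8 (1.61), Psma1 (0.91), Psmd3 (0.87), Psmd7 (0.85), Psmd10 (0.82), Psme3ip1 (0.77), Psmc2 (0.77), Psme1 (0.72), Psma7 (0.71), Psma5 (0.65), Psmc6 (0.62), Psmc5 (0.61), Psma4 (0.60), Psmd1 (0.58), Psmg4 (0.56), Psmd12 (0.52) and Psme3 (0.37). Here 15 genes were higher after quantile normalization and 3 after median scaling, against 9.34% and 6.24% of all genes. Psma1 and Psmd3 led among subunits of the particle with brighter signals, whereas Psmb11 and Psma8 had signals near the floor. All genes had a median of 0.24 in this comparison.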

How the results depend on the processing

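Of the genes called against control, Psma1, Psmc2, Psmd3, Psmd7, Psmd10 and Psme1 kept their direction and call under all 21 alternatives, and Psmb11 under 20 of 20. The others lost it under 1 to 11. Against control at 3 h, quantile normalization gave 3 genes higher and 1 lower, median scaling 3 and 0 with a median log2 change of 0.10, and the fit without probe sets named _x_at, _s_at or _a_at 3 higher. At 6 h the number lower was 3 after quantile normalization, 0 in the fit of only the 2 groups and 2 without those probe sets. From 1 h to 3 h, quantile normalization gave 2 higher and 0 lower with a median of -0.0351, median scaling 2 and 0 with a median of 0.0307, and a pseudocount of 1 gave 3 lower. The fit of only the 2 groups gave 2 lower, and the bright genes, the replicate block and the fit without those probe sets each gave 1 higher. From 3 h to 6 h, quantile normalization gave 1 lower and a median of 0.18, and the fit of only the 2 groups 1 lower. Median scaling gave 3 higher, 1 lower and a median of -0.0269. The shares of all genes under both scalings are given with each comparison above. The F test called 9 genes after median scaling and 12 with a pseudocount of 1, against 19. With those probe sets left out, the change of Psma3 at 3 h was 0.57 (adjusted p = 0.00911) and that of Psmd13 at 6 h -1.12 (adjusted p = 0.00437), where another probe set stood for each gene.

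Leaving out 1 array at a time gave, against control, 1 to 2 genes higher and 1 to 4 lower at 3 h, and 9 to 18 higher and 0 to 1 lower at 6 h. It gave 0 to 1 higher and 1 to 19 lower from 1 h to 3 h, and 14 to 29 higher from 3 h to 6 h. The F test then called 13 to 24. The median log2 change of the 46 genes was 0.04 to 0.26 at 1 h, -0.16 to -0.10 at 3 h, 0.16 to 0.30 at 6 h, -0.41 to -0.18 from 1 h to 3 h and 0.32 to 0.38 from 3 h to 6 h. The labels do not say whether same-numbered arrays of different groups shared more than the number. Correlations of their deviations were -0.0054 to 0.041, against -0.0553 to 0.0337 for other numbers. The replicate block gave 12 higher and 1 lower at 6 h, while at 3 h it gave 1 and 2. With 3 arrays per group the precision is limited. The causes of these shifts were not tested.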
